A study of Mus musculus with 4 samples.

Results

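The genes described here code for the extracellular matrix and for enzymes that crosslink or cut it, in kidney epithelial cells with and without fumarate hydratase (FH), the tricarboxylic acid cycle enzyme encoded by Fh1 in the mouse. They are the 9 rows of the authors' deposited table of genes that are Col5a2, Col6a1, Tnc, Loxl2 or Mmp13, or whose symbol reads Col, digits and a, or begins with Mmp or Lox, out of 1616 named rows and 16755 probe sets in all. Expression was measured by the study on 4 whole-transcript arrays (Affymetrix), with 2 for Fh1Δ/Δ cells (labelled FH knock out) and 2 for Fh1fl/fl cells (labelled FH wild type), all in normoxia and untreated. Both groups share the C57BL/6 background, immortalization, and a medium of DMEM with 10% serum and 2 mM glutamine, to which pyruvate and uridine were also added per the study's methods. The study's methods name 1 cell line per genotype and no clone, so that a difference between genotypes and a difference between 2 lines cannot be told apart. The labels call the replicates biological and nothing says that they came from separate cultures, so the p-values given here measure the spread between these arrays only.

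The matrix around epithelial cells is built in layers. Type IV collagen and laminins form the basement membrane on which tubule cells sit, type VI collagen forms beaded filaments beneath it, and the fibril-forming collagens, among them type V, lie in the interstitium beyond. Collagen chains are hydroxylated inside the cell, trimmed outside it, and tied together by lysyl oxidases, while matrix metallopeptidases (MMPs) cut them. Glycoproteins such as tenascin-C alter how cells grip this network.

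Of these 9 rows, 8 are matrix genes: the collagen chains Col5a2, Col6a1, Col4a6 and Col25a1, the glycoprotein gene Tnc, the lysyl oxidase gene Loxl2 and the metallopeptidase genes Mmp13 and Mmp28. The row of Col4a3bp, whose current symbol is Cert1, was found through the spelling of its older symbol alone. Its product carries ceramide between membranes and is not a collagen. The mouse RefSeq genes hold 44 collagen chains, 23 MMPs and 5 lysyl oxidases, of which 4, 2 and 1 had a name in the deposited table. The other genes of these families were not looked at, since that table lists only probe sets that passed the authors' own test of Fh1Δ/Δ against Fh1fl/fl cells at an adjusted p under 0.05. Every gene named here was thus preselected for a difference between the same cells, with the same 4 arrays among the columns of that table, and counts of members that pass a test support nothing about matrix genes as a class.

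The deposited values are log2 expression per probe set, and differences are given as log2 fold change of Fh1Δ/Δ over Fh1fl/fl cells with a standard error and a Benjamini-Hochberg adjusted p from limma over 16752 genes, with an adjusted p under 0.05 called. Fh1 itself read 9.21 and 9.14 in Fh1Δ/Δ cells and 10.48 and 10.45 in Fh1fl/fl cells (log2 fold change -1.29, standard error 0.11, adjusted p = 0.00579). Over all genes 6.23% were called higher and 3.99% lower in Fh1Δ/Δ cells, a split of 61.0% higher among the calls that became 43.3% when each array was centred on its median and 75.2% when every chromosome's median was subtracted. The median log2 fold change over all genes was -0.11, and -0.00458 with the chromosome medians subtracted. The 2 arrays of a group did not overlap those of the other group for 66.3% of all genes. Some chromosomes were shifted between the lines against the median over all genes, such as chromosome 10 (median -0.30) and chromosome 14 (0.175). Others lay close to it, such as chromosome 1 (-0.10) and chromosome 7 (-0.11). Over the chromosomes that hold the members, the share of probe sets with a positive log2 fold change lay between 17.5% on chromosome 10 and 57.9% on chromosome 14, and the part of these shifts in single genes was not tested beyond the alternative that removes them.

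In Fh1Δ/Δ cells 5 of the 9 rows were higher, and the other 4 were lower. Of the higher rows, Mmp13, Loxl2 and Col4a6 were called, and of the lower rows Col5a2, Tnc and Col6a1. Mmp28, Col4a3bp and Col25a1 were not called. These 6 calls stand beside 64.2% called among all 1613 named genes, which had been selected in the same way. In none of the 9 rows did the arrays of the groups overlap, beside 66.3% of all genes without overlap. The 9 rows had been preselected with these same arrays. The median absolute log2 fold change was 0.84 over the 9 rows, against 0.64 over the named genes and 0.27 over all genes.

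**Figure D1:**
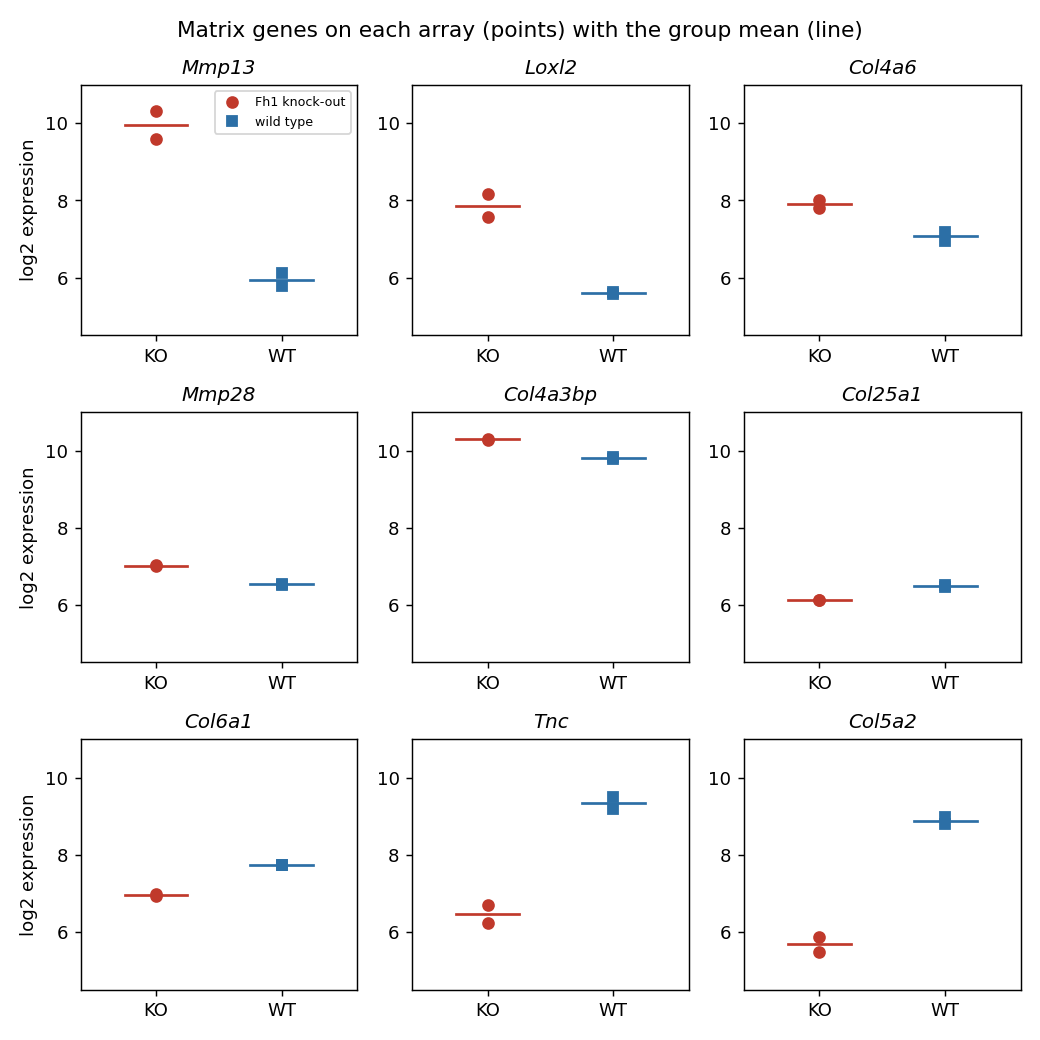
Log2 expression of the 9 rows, a panel each, ordered by their log2 fold change, with Fh1Δ/Δ arrays (KO, circles) left of Fh1fl/fl arrays (WT, squares). Points are arrays and lines are group means (n = 2 each); Mmp13 and Loxl2 lay higher and Tnc and Col5a2 lower in Fh1Δ/Δ cells by more than 2 on the log2 scale.

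Type V collagen joins type I collagen in fibrils and limits their width, and Col5a2 (probe set 6758414, chromosome 1) codes for its alpha 2 chain. Col5a2 read 5.47 and 5.88 in Fh1Δ/Δ cells and 8.98 and 8.79 in Fh1fl/fl cells. Both Fh1Δ/Δ arrays lay far below both Fh1fl/fl arrays, with differences between single arrays of -3.51 to -2.91. The log2 fold change was -3.21 (standard error 0.17, adjusted p = 0.00204), or a level 9.24-fold lower, the 5th lowest log2 fold change of the 16752 genes. The lower quartiles of all probe sets on the Fh1Δ/Δ arrays were 5.37 and 5.53, so that Col5a2 lay close to the dim end there, and how much of its signal was above background was not tested. On chromosome 1 the median log2 fold change was -0.10, and with chromosome medians removed Col5a2 stood at -3.11.

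Col6a1 (probe set 6775185, chromosome 10) codes for the alpha 1 chain of type VI collagen. It read 6.99 and 6.92 in Fh1Δ/Δ cells and 7.74 and 7.73 in Fh1fl/fl cells, with both pairs of replicates within 0.08 of each other. The log2 fold change was -0.78 (standard error 0.11, adjusted p = 0.0200), or 1.71-fold lower. Chromosome 10 as a whole had a median log2 fold change of -0.30, and only 17.5% of the probe sets on it had a positive one. With chromosome medians removed, Col6a1 had a log2 fold change of -0.47 and was not called (adjusted p = 0.0616). It was not called either without Fh1Δ/Δ replicate 1 (-0.81, adjusted p = 0.0829), Fh1Δ/Δ replicate 2 (-0.74, 0.0656), Fh1fl/fl replicate 1 (-0.77, 0.0634) or Fh1fl/fl replicate 2 (-0.78, 0.0851).

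In contrast to these chains, Col4a6 (probe set 7019833, chromosome X), which codes for the alpha 6 chain of type IV collagen, a basement membrane chain found in the kidney in Bowman's capsule, was higher. Its levels were 8.01 and 7.81 in Fh1Δ/Δ cells and 7.19 and 6.94 in Fh1fl/fl cells. The 4 differences between an Fh1Δ/Δ and an Fh1fl/fl array ranged between 0.62 and 1.07. The log2 fold change was 0.84 (standard error 0.15, adjusted p = 0.0306), or 1.79-fold. The call was lost without Fh1Δ/Δ replicate 1 (0.75, adjusted p = 0.123), Fh1Δ/Δ replicate 2 (0.94, 0.0649) or Fh1fl/fl replicate 2 (0.72, 0.118). In the genome Col4a6 stands head to head with Col4a5, which codes for its partner chain and was not analysed here.

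Col25a1 (probe set 6901347, chromosome 3), a membrane-bound collagen known mainly from neurons, was not called. It read 6.11 and 6.13 in Fh1Δ/Δ cells and 6.52 and 6.46 in Fh1fl/fl cells. Its log2 fold change was -0.37 (standard error 0.11, adjusted p = 0.0889), and the 95% interval, not adjusted for the number of genes, ran from -0.64 to -0.09. With quantile normalization Col25a1 had a log2 fold change of -0.22 (adjusted p = 0.234), and with chromosome medians removed -0.23 (0.226). Of the 4 collagen chains, 2 were called lower, 1 was called higher and 1 was not called, beside 64.2% called among all named genes, and no test was made of the chains as a group.

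Tnc (probe set 6922335, chromosome 4) codes for tenascin-C, a large, many-armed glycoprotein that loosens cell adhesion and is abundant in developing and wounded tissue. It read 6.70 and 6.22 in Fh1Δ/Δ cells and 9.50 and 9.20 in Fh1fl/fl cells, with differences between single arrays of -3.28 to -2.50. The log2 fold change was -2.89 (standard error 0.20, adjusted p = 0.00359), or 7.39-fold lower, next in order to Col5a2 among all genes. With chromosome medians removed it was -2.68. The lowest of the 4 array values of Tnc, 6.22, was above the lower quartiles of the Fh1Δ/Δ arrays.

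Loxl2 (probe set 6820040, chromosome 14) codes for a copper-dependent amine oxidase that crosslinks collagen and elastin. It read 8.17 and 7.57 in Fh1Δ/Δ cells and 5.56 and 5.62 in Fh1fl/fl cells, so that every Fh1Δ/Δ array was at least 1.95 above every Fh1fl/fl array. Its log2 fold change was 2.28 (standard error 0.21, adjusted p = 0.00723), or 4.85-fold. Both Fh1fl/fl values were under the lower quartile of their array (5.64 and 5.70), and how much of that signal was background was not tested. Chromosome 14 was shifted upward, with a median log2 fold change of 0.17 over all its probe sets and 0.45 over the brighter ones, and 19.6% of its genes were called higher. With chromosome medians removed, the log2 fold change of Loxl2 was 2.10 (adjusted p = 0.00792).

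The largest difference among the 9 rows was that of Mmp13 (probe set 6986719, chromosome 9), which codes for collagenase 3, an enzyme that opens the triple helix of fibrillar collagens. It read 10.34 and 9.61 in Fh1Δ/Δ cells and 6.12 and 5.77 in Fh1fl/fl cells, and the 4 differences between arrays ranged between 3.49 and 4.56. The mean level was 9.97 ± 0.52 in Fh1Δ/Δ cells and 5.95 ± 0.25 in Fh1fl/fl cells (SD, n = 2 each). The log2 fold change was 4.02 (standard error 0.27, adjusted p = 0.00314), or 16.3-fold, the 6th highest of all genes. The Fh1fl/fl values were near the dim end of their arrays (lower quartiles 5.64 and 5.70), and how much of that signal was background was not tested. Chromosome 9 had a median log2 fold change of -0.00465 over all its probe sets and 0.15 over the brighter ones, against -0.11 over all genes. Mmp28 (probe set 6790275, chromosome 11), which codes for epilysin, an MMP of epithelia, read 7.04 and 6.99 in Fh1Δ/Δ cells and 6.52 and 6.53 in Fh1fl/fl cells. Its log2 fold change was 0.49 (standard error 0.11), with an unadjusted 95% interval between 0.21 and 0.76. With an adjusted p of 0.0518 Mmp28 just missed the threshold. The other MMPs and their inhibitors, the Timp genes, were not analysed here.

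The stretches before the start sites of 1 gene that rose and 1 gene that fell are shown because both hold the same short motif. RefSeq windows of GRCm38.p6 were found for 7 of the 9 rows, and the 250 bases before each start were searched on both strands for the AP-1 motif TGANTCA, the RUNX core ACCACA, the hypoxia response cores ACGTG and GCGTG, and the antioxidant response core TGACNNNGC, and on the gene's strand for the TATA box TATANA. AP-1, RUNX and the hypoxia-inducible factors are transcription factors of many matrix and stress genes. TGACTCA, which reads as AP-1, begins 35 bases before the start of Mmp13 (chr9:7272364-7272513, plus strand) and 90 bases before that of Col6a1 (chr10:76726045-76726194, minus strand). In the sequences the capitals mark AP-1 in both and, in Mmp13, also the RUNX core and the TATA box, the last 150 bases before each start being printed.
Mmp13: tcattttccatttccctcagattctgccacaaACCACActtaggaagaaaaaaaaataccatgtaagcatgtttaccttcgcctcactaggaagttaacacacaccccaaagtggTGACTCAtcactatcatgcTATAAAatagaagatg
Col6a1: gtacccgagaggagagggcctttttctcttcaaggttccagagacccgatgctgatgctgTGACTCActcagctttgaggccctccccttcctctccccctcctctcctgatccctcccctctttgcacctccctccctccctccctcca

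The AP-1 motif was in 6.75% of all 32851 such windows, the RUNX core in 14.0%, the hypoxia response cores in 38.6%, the antioxidant response core in 10.2% and the TATA box in 16.4%. No window found for a member held a hypoxia response core or the antioxidant response core as spelled here. Col5a2 and Loxl2 had no window and were not searched. A TATA box match was also found before Tnc, in windows of both its start sites, and before Col4a6. These matches describe letters only, and no binding was measured.

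Col4a3bp (probe set 6809229, chromosome 13) read 10.30 and 10.28 in Fh1Δ/Δ cells and 9.83 and 9.77 in Fh1fl/fl cells. It was not called (log2 fold change 0.49, standard error 0.11, adjusted p = 0.0529). Chromosome 13 had a median of 0.11, and with chromosome medians removed the log2 fold change was 0.38 (adjusted p = 0.0973).

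**Figure D2:**
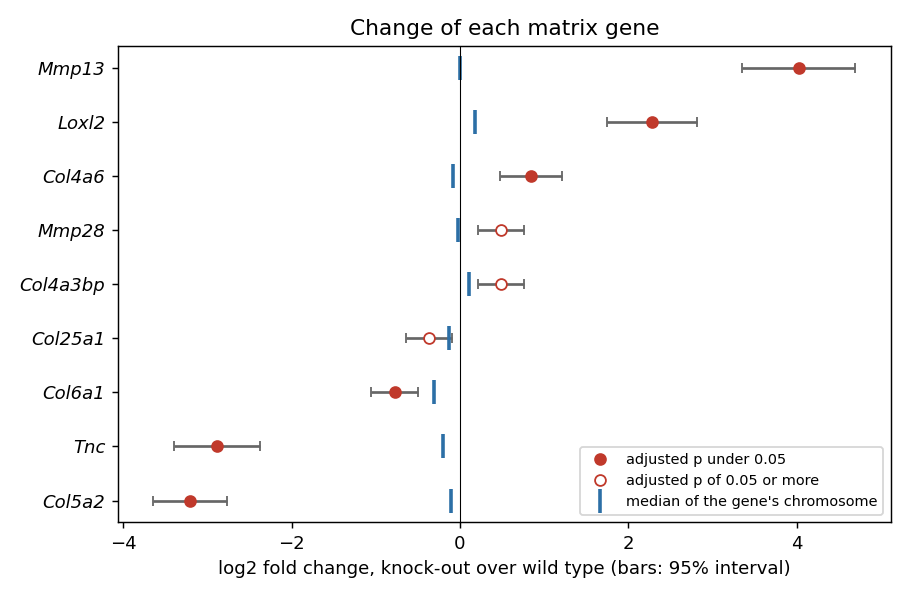
Log2 fold change of Fh1Δ/Δ over Fh1fl/fl cells for the 9 rows (points, filled where the adjusted p was under 0.05), with the unadjusted 95% interval from limma (bars) and the median log2 fold change of the chromosome each gene lies on (vertical ticks). Mmp13 at 4.02, Loxl2 at 2.28, Tnc at -2.89 and Col5a2 at -3.21 stood far from their chromosomes' medians, while Col6a1 at -0.78 lay on a chromosome with a median of -0.30.

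The 4 genes with an absolute log2 fold change above 2 were also the members whose Fh1Δ/Δ arrays lay farthest apart. Their gaps between the 2 Fh1Δ/Δ arrays ranged between 0.40 and 0.73, at or above the 87.7th percentile of the gaps of all genes, whose median was 0.15. The gaps of the other members were between 0.02 and 0.19. Neither Fh1Δ/Δ array was the more extreme in all 4: replicate 1 was farther from the Fh1fl/fl arrays for Mmp13, Loxl2 and Col5a2, and replicate 2 for Tnc. Over the 9 rows the log2 fold change was between 3.31 (Col4a6) and 11.3 (Mmp28) times the larger gap between replicates. Leaving out 1 array sets a single array against 2, has 1 residual degree of freedom and assumes that the lone array varies like the other group. In these fits Mmp13, Loxl2, Col5a2 and Tnc were called, with a log2 fold change that ranged between 3.66 and 4.39 for Mmp13, 1.98 and 2.58 for Loxl2, -3.41 and -3.01 for Col5a2, and -3.13 and -2.65 for Tnc.

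**Figure D3:**
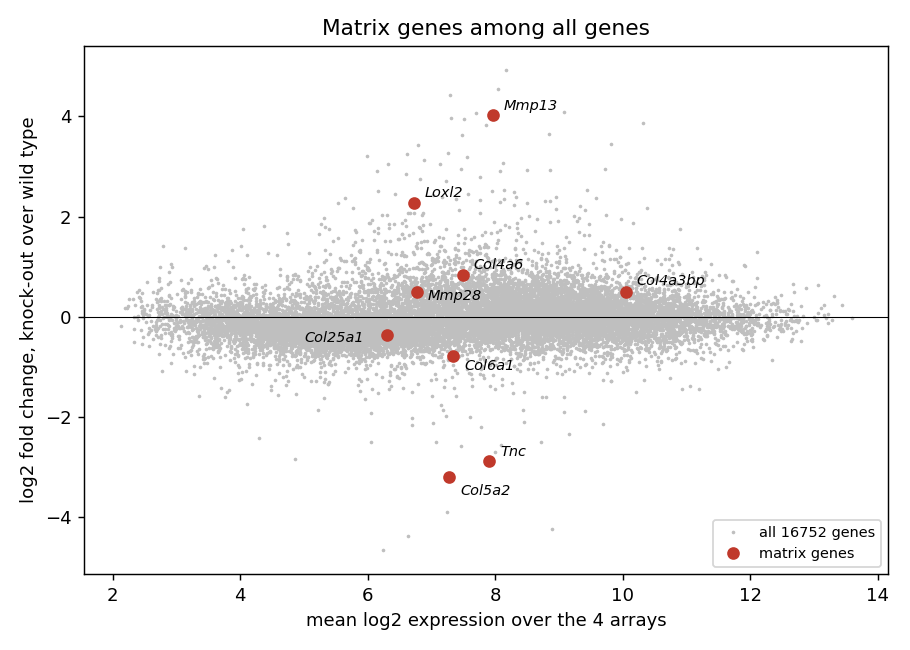
Log2 fold change of Fh1Δ/Δ over Fh1fl/fl cells against the mean log2 expression over the 4 arrays, for all 16752 genes (grey) and the 9 rows (red, named). Mmp13, Col5a2 and Tnc lay at the edges of the cloud, whereas Col4a3bp, Mmp28 and Col25a1 lay within it.

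The wider matrix was read through 209 further genes in 7 lists written by hand, of which 25 had a name. Of these 25, 10 were called higher, 6 lower and 9 were not called, with a median log2 fold change of 0.42. These named genes had been selected by the authors' test too, and over all 1613 named genes 665 were called higher and 371 lower, 64.2% in all, with a median of 0.38. The count over the 25 is near that background, and the counts by list that follow are of too few named genes to be read against it. None of the 21 genes of the basement membrane list, which holds the laminins, nidogens and perlecan, had a name.

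Among 54 glycoproteins, elastic fibre genes and growth factor binders, 3 of 6 named were called higher and 2 lower, beside the 64.2% called among all named genes. Igfbp4, a binder of insulin-like growth factors, read 8.42 and 8.34 in Fh1Δ/Δ cells and 6.47 and 6.80 in Fh1fl/fl cells (log2 fold change 1.75, standard error 0.15, adjusted p = 0.00568). Matn2, the filament-forming matrilin-2, rose by 1.18 and Fbln1, the elastic fibre protein fibulin-1, by 0.72. Both lie on chromosome 15, where 60.4% of the probe sets were higher. Thbs1, which codes for thrombospondin-1, an activator of latent TGF-β, read 11.94 and 11.86 in Fh1Δ/Δ cells and 12.80 and 12.75 in Fh1fl/fl cells, a log2 fold change of -0.87. Ltbp1, which anchors latent TGF-β in the matrix, had -0.59.

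Of 28 genes of proteoglycans and hyaluronan 2 had a name and 1 was called, beside the 64.2% called among all named genes. The called gene was Vcan, which codes for the large chondroitin sulphate proteoglycan versican. It read 7.78 and 7.53 in Fh1Δ/Δ cells and 5.11 and 5.27 in Fh1fl/fl cells (log2 fold change 2.46, standard error 0.14, adjusted p = 0.00246). In Fh1fl/fl cells it was under the lower quartile of each array, like Loxl2.

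Of 23 genes that modify, trim or fold collagen, 3 had a name. P4ha2, a subunit of the prolyl 4-hydroxylase that lets collagen helices hold together, read 9.62 and 9.71 in Fh1Δ/Δ cells and 8.93 and 8.96 in Fh1fl/fl cells (log2 fold change 0.72, adjusted p = 0.0243). Tll1, a protease that trims procollagen, read 4.70 and 4.95 in Fh1Δ/Δ cells and 5.58 and 5.47 in Fh1fl/fl cells (log2 fold change -0.70, adjusted p = 0.0388), under the lower quartile on all 4 arrays.

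Among 36 other proteases and their inhibitors 6 had a name, 2 called higher and 2 lower, beside the same 64.2%. Hpse, the heparanase that cuts heparan sulphate chains, read 8.68 and 8.31 in Fh1Δ/Δ cells and 6.28 and 6.44 in Fh1fl/fl cells (log2 fold change 2.14, standard error 0.16, adjusted p = 0.00429). Ctsb, the lysosomal protease cathepsin B, rose by 0.79. Adamts1 and Adamts5, both proteases of aggrecan and versican, had log2 fold changes of -0.996 and -0.83 (adjusted p = 0.0137 and 0.0176). They lie on chromosome 16, where the median was -0.25 and 26.1% of the probe sets were higher, and both were called with chromosome medians removed (-0.75 and -0.58).

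Of 25 integrins and other matrix receptors only Ddr2 and Dag1 had a name. Ddr2, a receptor tyrosine kinase that binds fibrillar collagen, read 8.09 and 7.73 in Fh1Δ/Δ cells and 5.72 and 5.94 in Fh1fl/fl cells (log2 fold change 2.08, standard error 0.17, adjusted p = 0.00511), close above the lower quartiles of the Fh1fl/fl arrays. Of 22 genes of the TGF-β family 6 had a name. Grem1, a secreted antagonist of bone morphogenetic proteins, read 7.65 and 7.76 in Fh1Δ/Δ cells and 5.92 and 6.08 in Fh1fl/fl cells (log2 fold change 1.70, standard error 0.12, adjusted p = 0.00379). Its Fh1fl/fl values, like those of Mmp13, were near the dim end of their arrays. Acvr1b, a type I activin receptor, rose by 1.02, and Inhba, which codes for the subunit of activin A, had -0.79.

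The 9 genes of these lists that were not called, named here after their values were seen, were Ltbp4, Acan, Pcolce2, Adam15, Adam9, Dag1, Smad3, Bmpr1a and Smad4. Their log2 fold changes were between -0.42 (Acan) and 0.50 (Adam15), and their adjusted p between 0.0522 and 0.157. Of the 16 called, 14 were called with chromosome medians removed, Ltbp1 (-0.47, adjusted p = 0.0676) and Tll1 (-0.56, 0.0661) being the exceptions. In the same fit Adam15 (0.64, adjusted p = 0.0339) and Adam9 (0.54, 0.0474) passed as well. Igfbp4, Vcan, Hpse, Ddr2 and Grem1 were called whichever array was left out, again with 1 array set against 2. Over all genes, too, fewer were called in each of these fits than with all arrays. The share of all called genes that kept a call, here or with chromosome medians removed, was not computed. These outcomes are therefore not read as particular to matrix genes. Thbs1, Fbln1, Ltbp1, P4ha2, Tll1, Adamts5, Ctsb and Inhba each lost the call whichever array was left out (highest adjusted p between 0.0700 and 0.137). Matn2 (adjusted p = 0.0829 and 0.0672) and Acvr1b (0.0725 and 0.0601) did so when replicate 1 of Fh1Δ/Δ cells or replicate 2 of Fh1fl/fl cells was dropped. Adamts1 did so when either array of Fh1Δ/Δ cells was dropped (0.0679 and 0.0549).

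**Figure D4:**
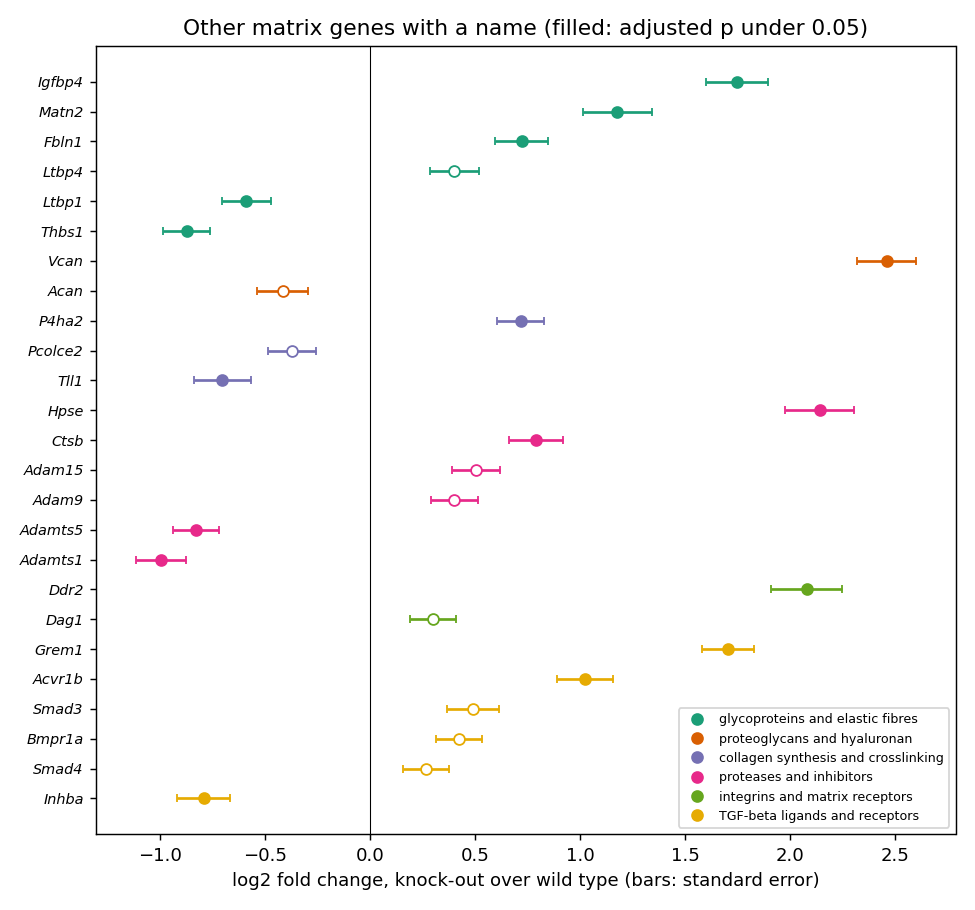
Log2 fold change of Fh1Δ/Δ over Fh1fl/fl cells for the 25 further matrix genes with a name (points, coloured by list, filled where the adjusted p was under 0.05), with the standard error from limma (bars). Vcan, Hpse, Ddr2, Igfbp4 and Grem1 lay above 1.5, and Adamts1 at -0.996 was the lowest of the 25.

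Markers of cell types were read from the same table. Of the kidney epithelial markers, Emx2, a transcription factor of the developing kidney, read 8.56 and 8.26 in Fh1Δ/Δ cells and 9.46 and 9.59 in Fh1fl/fl cells (log2 fold change -1.12, adjusted p = 0.0174). Slc12a1, a transporter of the thick ascending limb, read 4.33 and 4.38 in Fh1Δ/Δ cells and 4.67 and 4.72 in Fh1fl/fl cells (-0.34, 0.101). These values of Slc12a1 were under the lower quartile on all 4 arrays. Of 18 markers of fibroblasts or mesenchymal cells 2 had a name. Zeb2, a repressor of epithelial genes, read 9.25 and 9.02 in Fh1Δ/Δ cells and 8.44 and 8.36 in Fh1fl/fl cells (log2 fold change 0.73, adjusted p = 0.0332), and Cdh2, or N-cadherin, had -0.34 (0.102). Zeb2 lost its call whichever array was left out (highest adjusted p of 0.133), and Emx2 without Fh1Δ/Δ replicate 2 (0.0532) or Fh1fl/fl replicate 2 (0.0643). Slc12a1 and Cdh2 were named after their values were seen. None of 7 endothelial and 8 leukocyte markers had a name. The defining markers of the labelled cell type, such as Cdh16, Epcam and the keratins, could therefore not be read, and the part of any change of cell type in the matrix genes was not tested.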

How the data were processed

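The authors deposited log2 values per probe set, made with RMA and Partek (build mm9, versions not given in the sources used here), for 4 arrays. Gene symbols came from a second deposited table, which lists the 1616 that passed the authors' test at 0.05 and whose fold changes and p-values were not used. Of the deposited array columns, 12 columns of hypoxia arrays that match no labelled sample were not used, so hypoxia was not analysed here. The 4 normoxia columns were identical in both tables. Of 1616 accessions, 1514 matched RefSeq.

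The difference between Fh1Δ/Δ and Fh1fl/fl cells came from lmFit and eBayes of limma 3.58.1 under R 4.3.3 (2 residual and 3.447 prior degrees of freedom) over all 16752 genes, after 3 duplicated names were reduced to the brighter probe set, with no filter and Benjamini-Hochberg adjustment. An exact permutation test of 2 arrays against 2 cannot give a p below 0.333. The limma step was tested on simulated data. A probe set's chromosome came from the table, or from both named neighbours in probe set order where these agreed (right for 1527 of 1538 left out in turn), and 16098 were placed. All rows found by the rule are described, and of each list up to 5 called genes with arrays that did not overlap. Members, lists and motifs were chosen with earlier results of these data known. The number of arrays limits precision. One of the kidney epithelial markers is not reported here.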

Additional observations from a re-analysis of the deposited data

How the results depend on the processing

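Most alternatives could not reverse a direction. The replicate block, trend and robust, unmoderated, averaging, dimmest-out and threshold alternatives left each estimate as it was. Dropping 1 array cannot reverse a gene whose groups do not overlap. Quantile normalization, median centring and removal of chromosome medians could have done so. All 9 rows, preselected for this same difference, kept the direction of their log2 fold change under every alternative that could be fitted. Mmp13, Loxl2, Col5a2 and Tnc were called in each except the unmoderated test. That test called 0 of 16752 genes after adjustment, with 3668 at an unadjusted p under 0.05. Leaving out 1 array, with the lone array of a group assumed to vary like the other group, gave between 205 and 480 higher and between 81 and 322 lower genes, against 1044 and 668 with all arrays, with 2 or 3 members called higher and 2 lower. limma with trend and robust gave 1854 higher and 1471 lower genes, leaving out the dimmest 25% of probe sets 1749 and 1526, the dimmest 50% 1694 and 1246, and a threshold of 0.01 gave 197 and 51. Median centring gave 1057 lower and removal of chromosome medians 363 lower genes. Of the members, 5 were called higher with trend and robust, with quantile normalization and without the dimmest 25%, when Mmp28 and Col4a3bp passed. Col25a1 passed without the dimmest 25%. Without the dimmest 50%, Loxl2, Mmp28 and Col25a1 were not tested. Averaging duplicated probe sets left the counts at 1044 and 668. The causes of these differences were not tested. With the replicate number as a block the counts were 1009 and 749, and the same 6 members were called. The labels do not say that a number marks a shared batch, and the deviations of same-numbered arrays correlated at 0.106 across probe sets. Signal over background was not given in the sources used here, which limits the sizes read for Mmp13, Col5a2, Loxl2, Vcan, Ddr2 and Grem1.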
